A study of Mus musculus with 6 samples.

Results

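The genes described here encode the core of the pre-mRNA splicing machinery: the SR proteins (Srsf genes), the small nuclear ribonucleoprotein (snRNP) proteins with letter names (Snrpa to Snrpg) and the subunits of splicing factor 3 (Sf3a and Sf3b genes). They were taken by name from the deposited table, leaving out names ending in -ps, and came to 28 of the 19978 genes: 8 Srsf, 11 Snrp and 9 Sf3 genes. The Snrp group holds 1 gene whose row is annotated as a processed pseudogene, Snrpert. Genes of these families that the table does not list, among them Srsf3, Srsf7 and Snrpc, were not analysed here.

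Each sample held 100 hematopoietic stem cells (HSCs), from which every blood lineage descends, sorted from mouse bone marrow. Libraries were made by Smart-seq2, in which polyadenylated RNA is copied over its full length from an oligo(dT) primer and amplified by PCR. There were 3 WT libraries and 3 libraries that carry the title S and the genotype Piezo1 cKO, a conditional knockout of the gene for a mechanically gated cation channel. The sources used here do not give the Cre driver, the floxed allele, or the age and number of the mice. Since nothing says that libraries of a genotype came from different mice, p-values reflect the spread among these 6 samples and that spread may be technical. The question put to the data is how HSC transcripts differ between the genotypes.

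Piezo1 itself did not follow the labels. Its level was 0.539, 3.97 and 1.57 FPKM (fragments scaled to transcript length and library depth) in WT 1, 2 and 3, and 0.175, 8.81 and 0.819 FPKM in the libraries labelled cKO 1, 2 and 3. The fitted log2 difference was 1.20 towards the labelled cKO libraries (edgeR's quasi-likelihood test, adjusted p = 0.847). A deletion of part of the gene can leave reads elsewhere in it, so the total checks the labels only in part. Total counts ran from 3907259 in WT 3 and 18035239 in WT 1 through 31252820 in labelled cKO 1 to between 64794532 and 72116120 in WT 2 and labelled cKO 2 and 3, so the libraries with the lowest totals are both WT. Summed levels of 10 erythroid markers ran from 10150 to 22800 FPKM over the WT libraries but from 2052 to 3015 FPKM over those labelled cKO. Globin genes made up most of each sum. Alas2 followed the sums (21.8 to 102 FPKM in WT, 4.98 to 15.3 FPKM in labelled cKO). Car2 overlapped between the genotypes (240 to 878 against 199 to 416 FPKM), and Car1 was highest in labelled cKO 3 (57.1 FPKM). The 13 granulocyte and monocyte markers summed to 29460 FPKM in WT 1 and 38800 FPKM in labelled cKO 2, against 736 to 5061 FPKM in the other 4 libraries. S100a8, S100a9 and Camp made up most of those 2 high sums. Lyz2 did not follow them, at 42.3 FPKM in WT 1 but 557.5 FPKM in WT 2 and 1175 FPKM in labelled cKO 3. Mpo, Elane, Csf1r, Fcgr3, Ly6c2 and Mmp8 were highest in WT 3, at 3.46 FPKM or less. The 15 HSC and progenitor markers summed to 46.4 FPKM in WT 3 and 429 to 612 FPKM in the other 5 libraries, but in WT 1 Ly6a alone made up 601 FPKM. Without Ly6a the other 14 summed to 10.8 and 10.9 FPKM in WT 1 and WT 3, against 221 to 590 FPKM elsewhere. Not every marker followed this sum. Cd34 was highest in WT 3 (1.24 FPKM), and Procr, at 3.32 FPKM there, was higher only in labelled cKO 2 (60.2 FPKM). Mecom and Flt3 had no counts in WT 3 and Slamf1 had none in labelled cKO 1, while Mecom was at most 0.934 FPKM in any library. In such bulk samples fewer cells that express a gene and less RNA per cell cannot be told apart.

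Splicing removes introns in a series of steps carried out by the snRNPs U1, U2, U4, U5 and U6. A ring of Sm proteins (SmB, SmD1, SmD2, SmD3, SmE, SmF and SmG) closes around the RNA of the U1, U2, U4 and U5 particles, and each particle then carries proteins of its own. SF3A and SF3B are parts of the U2 particle, and SF3B holds the branch site, whose adenosine attacks the start of the intron in the first step. SR proteins bind exon sequences through RNA recognition motifs, recruit the U1 and U2 particles and influence which exons are kept. In human blood disease, SF3B1 and SRSF2 are among the splicing genes mutated in myelodysplastic syndromes.

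Several of these genes have retrotransposed copies whose sequences bear on how reads can be assigned. Snrpe, which encodes SmE, has Snrpert, itself a member by name and annotated as a processed pseudogene. The coding sequence of Snrpg, one of the most abundant members, is shown because a copy repeats it in full. Snrpg encodes SmG and lies on the plus strand of chromosome 6 (GRCm38, chr6:86371304-86379328, from the deposited coordinates). Its coding sequence of 231 bases, from the GENCODE M21 transcripts, is repeated with 0 differences in Gm8186, a processed pseudogene on the minus strand of chromosome 17 (chr17:26098991-26099221), so no letter is in capitals.
Snrpg: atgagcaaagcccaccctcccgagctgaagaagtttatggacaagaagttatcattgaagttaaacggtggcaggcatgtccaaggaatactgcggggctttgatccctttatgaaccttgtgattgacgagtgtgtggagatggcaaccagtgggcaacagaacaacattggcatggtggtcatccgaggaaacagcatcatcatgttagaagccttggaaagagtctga
Over all 28 members, 10 had at least 1 annotated pseudogene copy of at least 90% identity over at least 50% of the coding length. There were 25 such copies, and 13 of them, of 9 members, had rows of their own in the table. Besides Gm8186 and Snrpert, the closest were copies of Sf3b4 (Gm7935, 99.3% identity), Snrpd2 (Gm10120, 98.9%), Snrpf (Gm13092, 98.8%), Srsf5 (Gm12966, 98.7%) and Srsf10 (Gm5446, 98.4%). Levels of members with such copies are uncertain, since the sources used here do not say how reads with several matches were counted.

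The copies took a small part of the counts in most libraries and a large part in others. Snrpe was at 221, 677 and 3.38 FPKM in WT 1, 2 and 3 and at 781, 804 and 503 FPKM in labelled cKO 1, 2 and 3. Snrpert was at 9.33, 213 and 28.7 FPKM in WT and reached 259, 305 and 205 FPKM in the labelled cKO libraries. The ratio of Snrpert to Snrpe therefore lay between 0.315 and 0.407 in WT 2 and all 3 labelled cKO libraries, but was 0.0422 in WT 1 and 8.50 in WT 3. In WT 3 the ratio rests on 44 and 26 counts. By counts Snrpert held 6.03% to 7.64% of the pair in WT 2 and the labelled cKO libraries, 0.851% in WT 1 and 62.9% in WT 3. Snrpg was at 442, 533 and 4.55 FPKM in WT and at 517, 466 and 480 FPKM in the labelled cKO libraries, the narrowest range of any tested member within the labelled cKO group (1.11-fold). Gm8186 was at 2105, 357 and 24.8 FPKM in WT and at 33.7, 69.4 and 172 FPKM in the labelled cKO libraries. Gm8186 held 41.2% and 44.4% of the counts of the pair in WT 1 and WT 3, 8.97% in WT 2, and 0.952%, 2.15% and 5.00% in labelled cKO 1, 2 and 3. The WT 3 value rests on 72 counts of the pair. How far the split depends on the assignment of reads from the shared coding sequence was not tested.

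**Figure D1:**
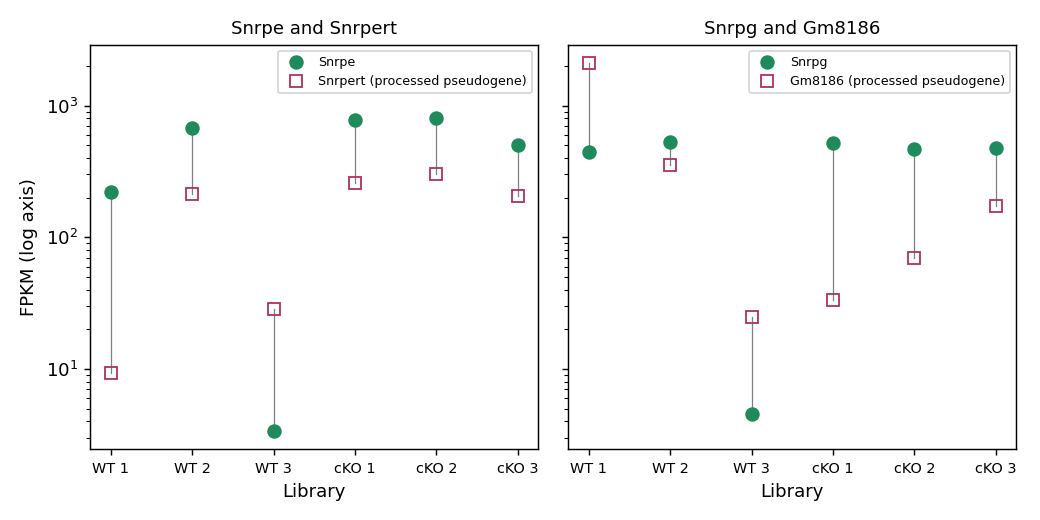
FPKM (log axis) of Snrpe and Snrpg (filled circles) and of their processed pseudogenes Snrpert and Gm8186 (open squares) in each library, with a line joining each pair. The gene is above its copy in WT 2 and all 3 labelled cKO libraries for both pairs, but below it in WT 3 for both pairs and in WT 1 for Gm8186 (442 against 2105 FPKM). By counts Snrpg was above Gm8186 in every library, with 14924 against 10459 in WT 1 and 40 against 32 in WT 3.

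By the number of members at a high level, 2 of the 3 WT libraries were low and the third was as high as any labelled cKO library. The number of members at FPKM of at least 10 was 7, 22 and 4 in WT 1, 2 and 3, and 15, 18 and 22 in labelled cKO 1, 2 and 3. WT 1 and WT 3, the libraries with the lowest totals, had the fewest, while WT 2 and labelled cKO 3 had equal numbers. Of the 4173 genes that passed the filter for testing (3 or more of the 6 libraries at FPKM of at least 1), 21.1%, 57.4% and 18.2% reached FPKM of 10 in the WT libraries and 34.8%, 51.9% and 53.1% in the labelled cKO libraries. The Snrp genes took 0.126%, 0.515% and 0.00901% of all counts in WT 1, 2 and 3, while in labelled cKO 1, 2 and 3 they took 0.417%, 0.522% and 0.622%. In WT 3 that share was 352 counts over 11 genes. The Srsf and Sf3 shares did not follow this order. The Srsf share was 0.0763%, 0.218% and 0.406% in WT and 0.338%, 0.574% and 0.251% in the labelled cKO libraries, and that of the Sf3 genes, 0.383% in WT 1, was there the highest of the 6 libraries. Sf3b6 alone held 66440 of the 69078 Sf3 counts in WT 1. The total counts and marker levels given above also differ between these libraries, and their part in the pattern was not tested.

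**Figure D2:**
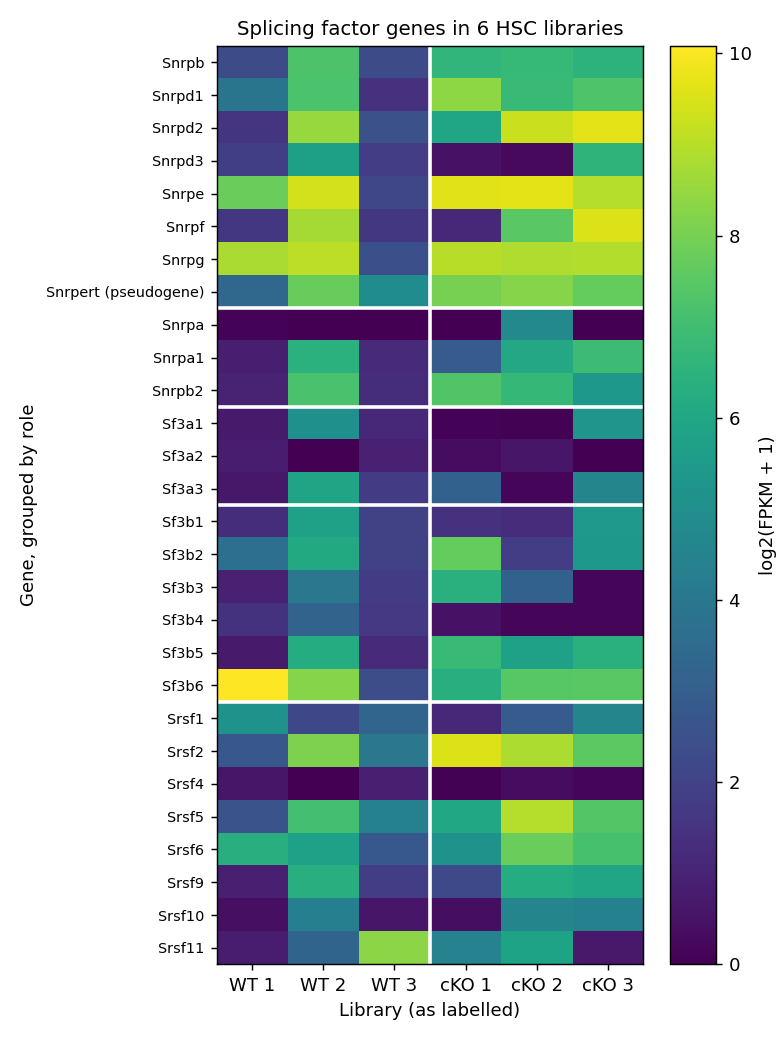
Level of all 28 genes in the 6 libraries as log2(FPKM + 1), from dark (0) to yellow (the highest value, Sf3b6 in WT 1 at 1083 FPKM), with white lines between roles and between genotypes. The columns of WT 1 and WT 3 are dark for most Sm ring and U2 genes, and single dark cells such as Snrpd3 in labelled cKO 1 and 2 stand beside bright ones.

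The most abundant members per transcript length were a pair of Sm ring genes and an SF3B subunit gene. Snrpe, Snrpg and Sf3b6 had the highest mean log2(FPKM + 1), at 7.93, 7.85 and 7.01 over the 6 libraries. Sf3b6 was the highest member in WT 1 (1083 FPKM) but ranked between 5 and 11 in the other 5 libraries, and by mean FPKM Snrpd2 (311.5) stood above it (305.2). Snrpd2, which encodes SmD2, was at 1.98, 366 and 4.66 FPKM in WT and at 61.4, 622 and 813 FPKM in the labelled cKO libraries. All 3 labelled cKO values lay above WT 1 and WT 3 but WT 2 fell among them, so the groups overlapped. Snrpd1, which encodes SmD1, was at 14.0, 150 and 1.74 FPKM in WT and at 333, 111 and 156 FPKM in the labelled cKO libraries, and WT 2 again fell among the labelled cKO values. Snrpb, which encodes SmB, was at 3.98, 151 and 3.97 FPKM in WT and at 98.8, 108 and 91.5 FPKM in the labelled cKO libraries. WT 2 was the highest of the 6 libraries for Snrpb, and the labelled cKO mean of 99.5 ± 8.40 FPKM (SD, n = 3) had a far smaller spread than the WT mean of 52.9 ± 84.8 FPKM (SD, n = 3).

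Other Sm genes were close to absent in libraries where their partners were high. Snrpd3, which encodes SmD3, was at 2.69, 51.5 and 2.59 FPKM in WT, and at 0.408 and 0.207 FPKM in labelled cKO 1 and 2 but 93.6 FPKM in labelled cKO 3. Those low values rest on 54 and 58 counts, while Snrpe had 40090 and 87891 counts in the same libraries. Snrpf, which encodes SmF, was at 2.08, 420 and 2.07 FPKM in WT and at 1.16, 182 and 753 FPKM in labelled cKO 1, 2 and 3. The products of these genes join 1 ring in equal numbers, and the highest of the 7 genes exceeded the lowest by 8.88-fold in labelled cKO 3 and 13.1-fold in WT 2, and by 1915-fold and 3886-fold in labelled cKO 1 and 2. In WT 1 the ratio was 224, with Snrpg and Snrpe high and Snrpd2 lowest. In WT 3 it was 2.68, with all 7 genes between 1.74 and 4.66 FPKM.

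**Figure D3:**
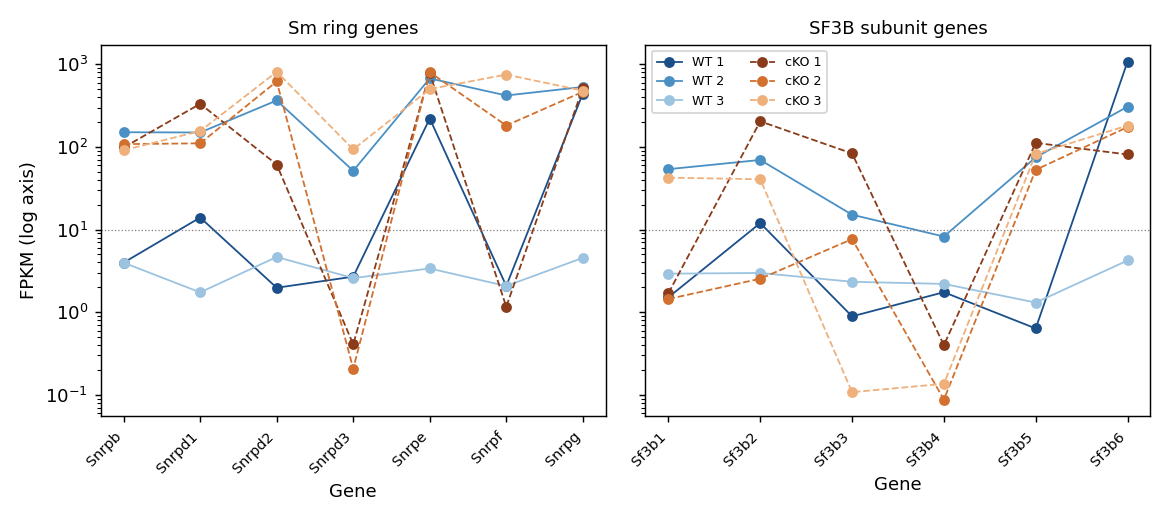
FPKM (log axis) of the 7 Sm ring genes and the 6 SF3B subunit genes in each library, 1 line per library (WT solid, labelled cKO dashed), with a dotted line at FPKM of 10. Lines of the same genotype cross. Snrpd3, Snrpf, Sf3b1, Sf3b3 and Sf3b4 are among the genes that drop below 10 in libraries where another gene of the panel is above 100.

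Of the proteins particular to 1 particle, the A′ protein (Snrpa1) and the B″ protein (Snrpb2) bind the U2 RNA as a pair. Snrpa1 was at 0.814, 86.6 and 1.34 FPKM in WT and at 6.65, 66.4 and 118 FPKM in the labelled cKO libraries. Snrpb2 was at 0.988, 143 and 1.49 FPKM in WT and at 161, 104 and 40.7 FPKM in the labelled cKO libraries. Both genes were lowest in WT 1 and WT 3, but in the labelled cKO group their order was reversed, Snrpb2 being highest where Snrpa1 was lowest. Snrpa, which encodes the A protein of the U1 particle, had 0 counts in WT 2, WT 3 and labelled cKO 3, which allows up to 3 counts per library or 0.0463, 0.768 and 0.0429 CPM (counts scaled to library total). It was at 0.0824 and 0.0180 FPKM in WT 1 and labelled cKO 1 and at 25.7 FPKM (6061 counts) in labelled cKO 2, and it failed the filter. Its row lists 1 of 7 annotated transcripts, with a retained intron, and none of the 4 coding ones, so what the row says of the coding mRNA is uncertain. Among the 14952 genes with an annotated coding transcript, 572 (3.83%) had a row that lists none.

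The SF3A trimer and the SF3B complex complete the U2 particle before it binds the branch site. Sf3a1 was at 0.638, 32.2 and 1.15 FPKM in WT and at 0.0755, 0.0391 and 37.5 FPKM in the labelled cKO libraries. Sf3a3 was at 0.558, 57.8 and 2.43 FPKM in WT and at 7.80, 0.0912 and 23.2 FPKM in the labelled cKO libraries. WT 2 and labelled cKO 3 held the high values of both genes, 1 library of each genotype. Sf3a2, the third subunit, peaked at 0.886 FPKM, had 0 counts in labelled cKO 3 and failed the filter.

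Sf3b1, which encodes the scaffold that encloses the branch site, was at 1.51, 53.9 and 2.93 FPKM in WT and at 1.70, 1.44 and 42.6 FPKM in the labelled cKO libraries. As for Sf3a1 and Sf3a3, WT 2 and labelled cKO 3 were the high libraries. Sf3b2 was at 12.0, 69.7 and 2.98 FPKM in WT and at 205, 2.54 and 40.7 FPKM in the labelled cKO libraries. Sf3b3 was at 0.889, 15.1 and 2.33 FPKM in WT and at 83.5, 7.67 and 0.108 FPKM in the labelled cKO libraries, so that each of these 2 genes peaked in labelled cKO 1. The genotypes overlapped for all 3 genes.

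The small SF3B subunits were more even within the labelled cKO group. Sf3b5 was at 0.635, 74.9 and 1.31 FPKM in WT and at 112, 52.9 and 82.5 FPKM in the labelled cKO libraries. Sf3b6, whose product contacts the branch site adenosine, was at 1083, 307 and 4.23 FPKM in WT and at 81.1, 174 and 182 FPKM in the labelled cKO libraries. WT 1 therefore had the highest Sf3b6 value and the lowest Sf3b5 value of the 6 libraries, from 66440 and 53 counts. Sf3b4, which encodes an RNA-binding subunit, was at 1.75, 8.24 and 2.199 FPKM in WT and at 0.399, 0.0875 and 0.136 FPKM in the labelled cKO libraries, from 82, 1291 and 27 counts against 33, 16 and 24. It was the only tested member whose genotypes did not overlap. It passed the filter only through the WT libraries, as did 131 of the 4173 tested genes, so it had to differ.

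Among the SR proteins, Srsf2, also called SC35, and Srsf5 had the highest mean log2(FPKM + 1), at 6.79 and 6.07. Srsf2 was at 5.60, 271 and 15.0 FPKM in WT and at 746, 455 and 183 FPKM in the labelled cKO libraries. Srsf5 was at 4.95, 133 and 20.4 FPKM in WT and at 63.8, 503 and 165 FPKM in the labelled cKO libraries. For both genes WT 1 and WT 3 were the lowest libraries and WT 2 lay within the range of the labelled cKO libraries. Srsf6 was at 80.7, 53.5 and 5.91 FPKM in WT and at 35.3, 217 and 140 FPKM in the labelled cKO libraries, so its values were interleaved.

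The founding member of the family, Srsf1, ran the other way in WT: it was highest in WT 1, at 35.5 FPKM, and at 3.51 and 8.75 FPKM in WT 2 and 3, against 1.21, 6.59 and 23.6 FPKM in the labelled cKO libraries. Srsf9 was at 0.837, 80.5 and 2.60 FPKM in WT and at 3.64, 75.7 and 60.1 FPKM in the labelled cKO libraries. Srsf10, a splicing repressor when it is dephosphorylated, was at 0.337, 19.4 and 0.510 FPKM in WT and at 0.304, 22.9 and 20.5 FPKM in the labelled cKO libraries. Both were high in WT 2 and labelled cKO 2 and 3 and low in the other 3 libraries. Srsf11 was the 1 tested member whose highest value lay in WT 3, at 317 FPKM (14667 counts), against 0.688 and 8.60 FPKM in WT 1 and 2 and 20.96, 56.1 and 0.613 FPKM in labelled cKO 1, 2 and 3. It held 14667 of the 15855 Srsf counts in WT 3, where no other Srsf gene exceeded 448. Srsf4 stayed at or below 0.867 FPKM in all 6 libraries and failed the filter.

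The spread within a genotype exceeded 10-fold for most members. In WT the highest library exceeded the lowest by more than 10-fold for 24 of the 25 tested members (96%), and for 77.4% of all 4173 tested genes. In the labelled cKO group this held for 13 of the 25 members (52%) and 65.4% of tested genes, and a range above 100-fold for 5 members (Sf3a1, Sf3a3, Sf3b3, Snrpd3 and Snrpf) and 41.6% of tested genes. Within 3-fold across the labelled cKO libraries were 6 of the 25 members (24%): Snrpb, Snrpe, Snrpert, Snrpg, Sf3b5 and Sf3b6. The share over all tested genes was 14.2%. The median SD of log2(FPKM + 1) was 2.80 in WT and 1.74 in the labelled cKO group over the members, and 1.82 and 1.80 over all tested genes.

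Between the genotypes no member passed the threshold. On simulated data with a spread near that of these libraries, edgeR's test called 0 of 200 genes changed 64-fold. The absence of calls therefore does not show that levels were equal. Of the 28 members, 25 were tested (7 Srsf, 10 Snrp and 8 Sf3), and 0 had an adjusted p under 0.05 in edgeR's quasi-likelihood test, as did 0 of all 4173 genes (0%). At an unadjusted p under 0.05 there were 292 genes (7%), 146 of them lower in the labelled cKO libraries (3.5%), and 1 member, Sf3b4, which was lower in the labelled cKO libraries with a log2 fold change of -3.81 (SE 1.68, adjusted p = 0.698). limma on log2(FPKM + 1) called 0 genes. DESeq2 called 298 genes (7.14%), of which 135 were higher (3.24%) and 163 lower (3.91%) in the labelled cKO libraries. Sf3b4 was the only member among them (DESeq2 adjusted p = 0.0361). It passed the filter through WT alone, so its direction was fixed. On the simulated data DESeq2 made 84 false calls beside 15 true ones at 4-fold, and 133 beside 141 at 64-fold. DESeq2 gave no adjusted p for 752 genes, 4 members among them.

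The fitted log2 fold changes of the other members had standard errors of 1.92 to 2.50. The highest were Sf3b3 at 2.85 (SE 2.41), Srsf2 at 2.79 (SE 2.01), Srsf5 at 2.73 (SE 2.12), Snrpd2 at 2.48 (SE 2.00) and Snrpd1 at 2.33 (SE 2.33) on the log2 scale. Those below 0 besides Sf3b4 were Sf3b6 at -1.58 (SE 1.92), Srsf11 at -1.45 (SE 2.13), Srsf1 at -0.56 (SE 2.42) and Sf3a3 at -0.55 (SE 2.36). Over the 25 members the adjusted p of edgeR's test ran from 0.698 to 0.996. The sign of Sf3b1, at 0.03 with TMM scaling, was negative with median-of-ratios scaling (-0.29) and with library totals alone (-0.39).

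**Figure D4:**
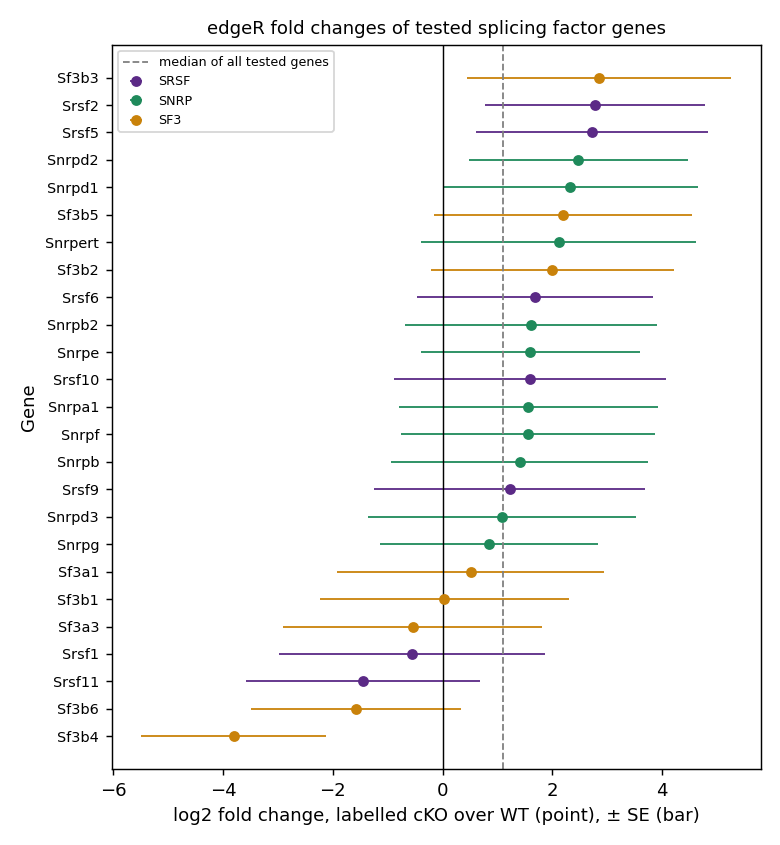
edgeR log2 fold change of each tested gene, labelled cKO over WT (points), with its standard error (bars), coloured by family and ordered by size; the dashed line marks the median of all 4173 tested genes. Most bars cross 0 and the dashed line at 1.10, and Sf3b4 at -3.81 lies farthest from it.

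Medians of the families stand beside that of all tested genes as a description. The median log2 fold change was 1.56 over the 25 members and 1.10 over all tested genes, and 16 of the 25 members lay above the latter. By family it was 1.59 for Srsf, 1.58 for Snrp and 0.27 for Sf3 genes. A positive sign was found in 20 of the 25 members (80%) and in 67.9% of all tested genes. All 10 tested Snrp genes were positive with TMM scaling, with median-of-ratios scaling and with library totals alone, but Snrpd3 was negative on the log2(FPKM + 1) scale (-0.70). On that scale the median difference was 1.78 over the members and 0.58 over all genes, with 2.67 for Snrp, 1.72 for Srsf and 0.03 for Sf3 genes. The all-gene median itself moved with the scaling, from 1.10 with TMM to 0.52 with median-of-ratios and 0.63 with library totals, while the members' median moved to 1.28 and 1.08.

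The size of the median over the 25 members, and on the log2(FPKM + 1) scale its direction, rested on WT 1 and WT 3. Both libraries lay below the other 4 for 12 of the 25 members (48%): Snrpa1, Snrpb, Snrpb2, Snrpd1, Snrpd2, Snrpe, Snrpert, Snrpg, Sf3b5, Srsf2, Srsf5 and Srsf9. The same held for 701 of the 4173 tested genes (16.8%). Against WT 2, folds were taken on FPKM + 1, not on FPKM. On that scale 16 members were more than 10-fold lower in WT 1 and 18 in WT 3, compared with 34.7% and 32.5% of all tested genes. In labelled cKO 1, 2 and 3 there were 7, 5 and 1, compared with 27.6%, 12.9% and 11.8%. Genes low in WT 2, such as Sf3b4 at 8.24 FPKM, could not reach a 10-fold drop on that scale. With WT 1 and WT 3 both left out, so that WT 2 alone stood for its genotype, the median difference in log2(FPKM + 1) over the members was -0.69 (all genes -0.55) and the edgeR median was 0.19 (all genes 0.41). Without WT 2 the first of these was 3.30 (all genes 1.21), and the edgeR median rose to 4.17 (all genes 2.93). The families differed when WT 1 and WT 3 were left out. The median difference in log2(FPKM + 1) was then 0.40 for Srsf, -0.41 for Snrp and -2.06 for Sf3 genes. The edgeR medians were 1.17, 0.05 and -1.04 in the same order.

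Counts of members whose genotypes did not overlap also depended on the libraries included. With all 6 libraries there was 1 of 25 (Sf3b4, higher in WT), against 482 of the 4173 tested genes (11.6%), of which 266 (6.37%) were higher in the labelled cKO group and 216 (5.18%) in WT. The count was 13 without WT 2 (32.1% of all tested genes), 2 without WT 3 (15%), 5 without labelled cKO 1 (31.3%), 3 without labelled cKO 2 (22%) and 6 without labelled cKO 3 (22.7%). Without WT 1 it was 1 again (14.3%). With WT 1 and WT 3 both left out it was 7, all higher in WT 2 (38.3% of all tested genes in either direction). The 13 without WT 2 were the 12 genes listed above and Sf3b4.

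**Figure D5:**
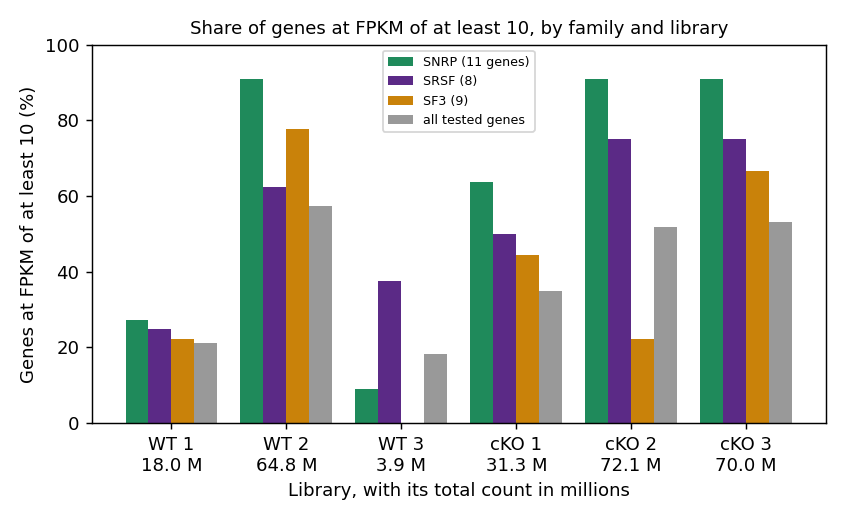
Percent of genes at FPKM of at least 10 in each library, for the 11 Snrp, 8 Srsf and 9 Sf3 genes and for the 4173 tested genes, with the total count (M) under each library. The Snrp bars stand at 90.9% in WT 2 and labelled cKO 2 and 3, 63.6% in labelled cKO 1, 27.3% in WT 1 and 9.09% in WT 3, and the Sf3 bars at 22.2% in both WT 1 and labelled cKO 2.

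The most similar pair of libraries in these genes joined the genotypes. Over the 25 tested members, log2(FPKM + 1) of WT 2 correlated with labelled cKO 3 at a Pearson r of 0.854 and with labelled cKO 2 at 0.692, and with WT 1 and WT 3 at 0.415 and -0.115. WT 1 and WT 3 correlated with each other at 0.096. Spearman's rho for these 5 pairs was 0.885, 0.802, 0.472, 0.192 and 0.567, so the last value depended on the measure. Over all tested genes the corresponding Pearson values were 0.612, 0.595, 0.366, 0.264 and 0.570. These are descriptions over genes of single libraries, which share base composition and length and are not independent points.

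Shorter members were more abundant. Across the 24 tested members with a coding sequence, the mean log2(FPKM + 1) fell with coding length at a Spearman rho of -0.658, and at -0.408 over 3511 tested coding genes. Within single libraries rho ran from -0.745 in labelled cKO 3 and -0.720 in WT 2 to -0.375 in WT 1 and -0.008 in WT 3. The Sm gene Snrpg has a coding sequence of 231 bases, and Sf3b1 and Sf3b3 have 3915 and 3654 bases. With GC content of the coding sequence rho was -0.255 over the members. FPKM depends on length by construction, and its part in these values was not tested.

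The rest of the splicing apparatus was read from 10 gene lists with 162 names, of which 145 were in the table and 98 were tested. No listed gene passed the threshold in edgeR's test or with limma, while DESeq2 called 4: Tra2a and Aqr higher and Usp39 and Hnrnpul1 lower in the labelled cKO libraries, against 7.14% of all tested genes. Hnrnpul1 passed the filter through WT alone, so its direction was fixed. The median log2 fold change over the 98 genes was 1.56 and 76 were positive, against a median of 1.10 and 67.9% positive over all tested genes. Some LSm proteins form rings like the Sm ring, around U6 RNA and in mRNA decay. The LSm list, which is not limited to the genes of those rings, had the highest list median, 2.88, with 9 of 9 positive. Lsm3 was at 1.19, 250 and 2.40 FPKM in WT and at 794, 407 and 412 FPKM in the labelled cKO libraries, and Lsm7 at 1.42, 622 and 5.62 against 1001, 1246 and 986 FPKM. Both, with Lsm14a, had no overlap between the genotypes, and for both genes WT 2 lay far above WT 1 and WT 3. Their log2 fold changes were 3.19 (SE 2.04) and 2.88 (SE 1.96), each with an adjusted p of 0.729.

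The listed genes with the smallest p were Prmt5 and Usp39. The first, the arginine methyltransferase of Sm proteins, was at 17.5, 2.94 and 1.27 FPKM in WT and at 0.102, 0.111 and 0.0832 FPKM in the labelled cKO libraries, a log2 fold change of -6.03 (SE 2.45, edgeR unadjusted p = 0.0138, adjusted p = 0.698). The other, a protein of the U4/U6.U5 tri-snRNP, was at 139, 50.8 and 504 FPKM in WT and at 0.277, 0.124 and 5.28 FPKM in the labelled cKO libraries, a log2 fold change of -6.61 (SE 2.86, edgeR unadjusted p = 0.0206, adjusted p = 0.698). Neither gene overlapped between the genotypes. Prmt5 passed the filter through WT alone and Usp39 through all 3 WT libraries and 1 other. Clk1, a kinase of SR proteins, was at 8.05, 21.8 and 2.64 FPKM in WT and at 0.462, 117 and 94.2 FPKM in the labelled cKO libraries, so its genotypes overlapped.

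The medians of the other lists ran from 0.25 to 1.80. They were 1.08 for 14 genes of U1, the tri-snRNP and other snRNPs, 1.31 for 6 U2 auxiliary and branch site factors, 1.74 for 10 genes of the Prp19 complex and catalytic steps, 1.51 for 4 minor spliceosome genes, 0.36 for 5 genes of the SMN complex, 0.25 for 4 SR kinase and import genes, 1.80 for 14 SR-like genes, 0.81 for 22 hnRNP genes and 1.24 for 10 exon junction and export genes. Without overlap were 8 of the 98 genes (8.16%, against 6.37% of all tested genes) with higher levels in the labelled cKO libraries and 5 (5.10%, against 5.18%) with higher levels in WT. Of the 5, Prmt5, Chtop and Hnrnpul1 passed the filter through WT alone and so could not overlap. Among the 8 were Tra2a, an SR-like splicing activator, at 0.625, 10.9 and 1.25 FPKM in WT and 106, 40.3 and 25.0 FPKM in the labelled cKO libraries, and Hnrnph1 at 2.43, 46.8 and 6.81 against 159, 145 and 117 FPKM. Among the 5 was Ptbp1, a repressor of exon inclusion, at 2.53, 22.6 and 6.79 FPKM in WT and 1.48, 0.238 and 0.203 FPKM in the labelled cKO libraries.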

How the data were processed

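RNA was measured by Smart-seq2 in 3 WT and 3 labelled Piezo1 cKO libraries of 100 sorted HSCs, without molecular identifiers, so a count is not a molecule. The authors deposited 1 table with raw counts per gene and with FPKM, their values scaled to transcript length and depth. The submitters' processing notes name the build GRCm39 and, without saying for what, StringTie 2.1.6, HISAT2 2.2.1, cutadapt 1.9, edgeR and DESeq2. The deposited coordinates of 17584 of 19953 genes (88.1%), 25 of the 28 members among them, equal those of GENCODE M21 on GRCm38, and are read as GRCm38.

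Genes with FPKM of at least 1 in at least 3 of 6 libraries (4173) were tested with edgeR 4.0.16 (R 4.3.3, TMM, robust quasi-likelihood test, genotype as the only term, Benjamini-Hochberg adjustment over all tested genes, threshold 0.05). The SE was computed as the fold change divided by the root of the F statistic. Alternatives were limma 3.58.1 on log2(FPKM + 1) or log2(FPKM + 0.1), DESeq2 1.42.0, other scalings and filters, a replicate block, the total count as covariate and left-out libraries. Data were simulated with a spread near that of these libraries and with 200 genes changed 4-fold or 64-fold. Of these, edgeR's test called 0 at either size. Using log2(CPM + 1), limma called 0 and 31, with 0 false calls. DESeq2 called 15 and 141, with 84 and 133 false calls. Copies were found with blastn 2.17.0 among GENCODE M21 transcripts, and matplotlib 3.10.9 drew the figures. Of deposited counts from 1 to 40, between 40.2% and 48.8% per library were multiples of 4, so low counts may not be single reads. One sequence comparison is not reported here. Floors cover counting error only. Members and lists were chosen with earlier results of these data known. Members are all accounted for. Of each list, up to 4 tested genes with the smallest unadjusted edgeR p could be named.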

Additional observations from a re-analysis of the deposited data

How the results depend on the processing

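The 0 calls over all genes became 298 with DESeq2 (135 higher, 163 lower), 332 with no filter (133 higher, 199 lower), 2 with a mean FPKM of at least 5 (Btrc and Atcay, named after their values were seen) and 292 at an unadjusted p under 0.05. For the members the count was 1 with DESeq2 and 1 at an unadjusted p, Sf3b4 in both, which had passed the filter through WT alone. For the pathway lists it was 4 with DESeq2 (Tra2a and Aqr higher, Usp39 and Hnrnpul1 lower, the last having passed the filter through WT alone) and 4 at an unadjusted p (Lsm10, Pnn, Prmt5 and Usp39), a threshold added for the lists after seeing the data. All other alternatives gave 0 for members and lists. Deviations from the genotype mean of each gene correlated at 0.126, 0.151 and -0.155 between same-numbered libraries. Between differently numbered libraries they correlated at -0.273 to 0.215. With 3 libraries per genotype these values cannot decide whether the numbers pair them. A replicate block gave 0 calls and a member median of 2.41. The total count as covariate gave 0 calls, a member median of 0.322 (all genes 0.434) and a median difference in log2(FPKM + 1) of 0.0773 (all genes -0.264). The median member log2 fold change ran from 0.84 to 4.17 as each library was left out, and the median difference in log2(FPKM + 1) was -0.69 without WT 1 and WT 3. Members without overlap numbered 1 to 13 as each library was left out, where the share over all tested genes ran from 14.3% to 32.1%. They numbered 7 without WT 1 and WT 3 (38.3% of all tested genes). With a mean FPKM of at least 5 there were 0 of 24. That filter leaves out Sf3b4 (mean 2.134 FPKM), and the share over all genes was not computed for it.

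Of 399 recomputed member fold changes 57 changed sign, over 17 members. Sf3b4, Sf3b5, Snrpd1, Snrpd2, Snrpe, Snrpert, Srsf2 and Srsf5 kept theirs throughout. For Sf3b4 this carries no weight, since it passed the filter through WT alone and its direction was fixed. Sf3b1 became -0.29 with median-of-ratios scaling and with DESeq2, -0.39 with library totals and -0.0466 with a mean FPKM of at least 5. limma on log2(FPKM + 1) gave -0.48 for Sf3a1, -0.31 for Sf3b1, 0.20 for Sf3b6 and -0.70 for Snrpd3, and with 0.1 added -1.67, -0.38, 0.28 and -1.58. No filter gave 0.25 for Sf3a3, 0.74 for Srsf1 and 0.48 for Srsf11. The block gave -2.90 for Sf3a1, 2.13 for Sf3a3, -0.0916 for Sf3b3, 0.0586 for Sf3b6, -2.45 for Snrpd3, 0.19 for Srsf1 and 2.41 for Srsf11. The total count as covariate gave -0.88 for Sf3a1, -1.16 for Sf3b1, -0.35 for Snrpd3, -0.22 for Snrpg, 2.48 for Srsf11, -0.17 for Srsf6 and -0.0629 for Srsf9. Without WT 1 and WT 3 the values were -1.24 for Sf3a1, -1.68 for Sf3b1, -0.28 for Snrpa1, -0.29 for Snrpb, -0.10 for Snrpb2, -0.59 for Snrpd3, -0.30 for Snrpf, 1.73 for Srsf1, -0.25 for Srsf10, 1.89 for Srsf11 and -0.62 for Srsf9. As each library was left out, Sf3a1 ran from -7.01 to 4.01, Sf3a3 ran from -1.80 to 3.09, Sf3b1 ran from -3.07 to 2.99, Sf3b2 ran from -0.81 to 3.59, Sf3b3 ran from -1.23 to 4.66, Sf3b6 ran from -2.62 to 0.40, Snrpd3 ran from -5.36 to 3.69, Snrpf ran from -0.0524 to 7.37, Snrpg ran from -0.28 to 1.37, Srsf1 ran from -1.83 to 1.23 and Srsf11 ran from -4.22 to 3.00.
The cause of these changes was not tested. Low levels are least precise in WT 3, where 1 count is worth 0.256 CPM against 0.0139 in labelled cKO 2.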
